A study of Homo sapiens with 2 samples.

Results

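Long noncoding RNAs were examined in cells labelled Jurkat, a line from a human T cell leukaemia. The set held every gene whose platform symbol begins with LINC and digits, ends in -AS1, -AS2 or -IT1, or is MALAT1 or NEAT1, and which had a probe with a detection p-value under 0.01 on at least 1 array. The array listed 526 such probes for 438 genes, and 76 probes for 70 genes passed, of 9410 named genes that passed in all. The members were 32 LINC-named RNAs, 37 antisense RNAs and 1 intronic RNA. The members were chosen by their detection p-values, so being detected is no finding here, and a difference of an RNA detected on 1 array alone is partly fixed by that choice.

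One culture received Me6TREN, a branched tetraamine that chelates metals and is known for bringing blood progenitor cells out of the marrow, for 24 hours, and the other received phosphate-buffered saline (PBS). Both cultures had RPMI medium containing fetal bovine serum, and the sources used here give no dose. Each group had 1 Illumina HT12 array, on which biotin-labelled RNA binds a bead-bound probe and the mean bead brightness is the signal. There is therefore no replicate, no test and no standard deviation for any value, and each difference is one between 2 arrays.

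Of 47322 probes, 15363 (32.5%) were detected with PBS and 13656 (28.9%) with Me6TREN, and the number of arrays limits the precision. The marker genes did not bear out the label of a T cell line, and the identity of the cells was not tested. Of 12 T cell markers, 2 were detected on both arrays (CD247 and CD28), and CD3E, CD5, CD7, LCK and TRAT1 were detected on neither. CD247 read 1219 with PBS and 726.4 with Me6TREN, and CD28 read 484.8 and 540.7. Of 5 B cell markers with a probe, 4 were detected on both. Among them CD79A, a subunit of the B cell receptor, read 32313 on the PBS array and 33455 on the Me6TREN array. CD79B, another subunit, read 45069 and 42800. MS4A1 and BLK were dimmer, at 1140 and 1912 on the PBS array. On at least 1 array, 7 of 12 T cell and 4 of 5 B cell markers were detected. Counted the same way, 4 of 8 myeloid, 3 of 5 erythroid, 1 of 5 natural killer, 1 of 5 epithelial and 0 of 6 fibroblast markers were detected. On both arrays, 1 of 8 myeloid, 1 of 5 erythroid, 1 of 5 natural killer and 0 of 5 epithelial markers were detected. No marker detected on both arrays differed by 2-fold, and CD3D was at least 2.26-fold lower with Me6TREN by its bound. The part of any other cell type in the results below was not tested. Fewer cells of a type and less RNA per cell cannot be told apart on such arrays.

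Long noncoding RNAs are transcripts that are not read into protein. LINC names are given to those that lie between protein-coding genes, and the ending -AS1 to those transcribed from the strand opposite a named gene, often from a start site shared with it. MALAT1 gathers in nuclear speckles, where splicing factors are stored, and NEAT1 is the scaffold of paraspeckles. Many antisense and upstream transcripts are made at low levels and are broken down in the nucleus by the RNA exosome.

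LINC and antisense RNAs that differed by at least 2-fold under all 10 alternative settings were LINC00115, LINC00938, ATP2B1-AS1 and LINC00294. No RefSeq promoter was at hand for LINC00115. The promoters of the others, LINC00938, ATP2B1-AS1 and LINC00294, are shown because these RNAs stayed past 2-fold in each of those settings. Each runs 5′ to 3′ from 250 bases before to 50 after the start, from RefSeq on build GRCh38.p14, with CCAAT boxes (CCAAT, or ATTGG on the other strand) in capitals.
LINC00938 promoter, chr12:45727872-45728171, minus strand: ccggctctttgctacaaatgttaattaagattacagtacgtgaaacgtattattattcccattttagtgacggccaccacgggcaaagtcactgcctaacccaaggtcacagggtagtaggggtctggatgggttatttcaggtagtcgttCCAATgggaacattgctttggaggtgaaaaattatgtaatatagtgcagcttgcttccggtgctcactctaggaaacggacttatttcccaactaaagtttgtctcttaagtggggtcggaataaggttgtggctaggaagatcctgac
ATP2B1-AS1 promoter, chr12:89708705-89709004, plus strand: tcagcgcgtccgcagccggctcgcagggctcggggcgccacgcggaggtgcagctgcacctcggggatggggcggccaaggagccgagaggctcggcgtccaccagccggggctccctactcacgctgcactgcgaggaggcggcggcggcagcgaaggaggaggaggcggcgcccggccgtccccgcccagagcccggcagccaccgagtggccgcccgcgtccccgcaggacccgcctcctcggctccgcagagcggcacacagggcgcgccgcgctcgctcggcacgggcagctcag
LINC00294 promoter, chr11:33075900-33076199, plus strand: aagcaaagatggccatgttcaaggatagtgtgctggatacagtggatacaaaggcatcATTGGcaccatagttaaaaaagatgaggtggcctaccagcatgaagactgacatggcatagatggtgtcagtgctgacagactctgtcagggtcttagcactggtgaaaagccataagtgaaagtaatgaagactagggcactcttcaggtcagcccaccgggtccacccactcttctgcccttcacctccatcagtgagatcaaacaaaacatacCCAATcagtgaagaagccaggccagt

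The ATP2B1-AS1 promoter had a GC content of 78.3% and held 3 GC boxes (GGGCGG on either strand, left in lower case). It lies beside the start of ATP2B1, which is 117 bases away on the opposite strand. The LINC00938 and LINC00294 promoters had GC contents of 44.3% and 48.0%, and held 1 and 2 CCAAT boxes and no GC box. None of these promoters held an AP-1 site (TGANTCA), a cAMP response element (TGACGTCA), a heat shock element (GAANNTTC) or a TATA box (TATAAA). RefSeq promoters were at hand for 53 of the 70 members. Among these, 4 held the AP-1 letters, 5 the heat shock letters, 19 CCAAT and 26 GGGCGG, or 7.55%, 9.43%, 35.8% and 49.1%. Over all 27305 promoters of the same length the shares were 7.76%, 6.87%, 35.7% and 44.6%, so the members' promoters were close to the rest in these letters. All motifs were sought on both strands, and a match is a run of letters, not a site shown to be used.

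The largest ratio was that of LINC00115, an RNA gene of unsettled function. Its deposited signal was 395.5 on the PBS array, not far above the detection limit of 333.4, and 1799 on the Me6TREN array. After normalization its log2 level was 7.18 with PBS and 10.95 with Me6TREN, a log2 ratio of 3.77 or 13.6-fold higher. Over 7 scalings of the arrays the log2 ratio ran from 2.53, without background correction, to 3.91. Its neighbouring protein-coding genes in RefSeq, OR4F16 and SAMD11, were detected on neither array.

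LINC00938 was bright on both arrays, with deposited signals of 2868 with PBS and 9989 with Me6TREN. Its log2 ratio was 2.29, or 4.89-fold higher, and ran from 1.92 to 2.60 over the scalings. The gene beside it did not move with it. ARID2, a subunit of a chromatin-remodelling complex, had a log2 ratio of −0.95, and its other probe was lower as well. ANO6, the coding gene on the other side, was detected on the PBS array alone.

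ATP2B1-AS1 had deposited signals of 1245 with PBS and 2878 with Me6TREN. Its log2 ratio was 1.999, or 3.997-fold higher, with a range of 1.41 to 2.09 over the scalings. ATP2B1, the plasma-membrane calcium pump gene whose start adjoins it, had a log2 ratio of 0.08, and its other probe was detected on the PBS array alone. The ratio of ATP2B1 ran from −0.54 to 0.14 over the scalings, so it has no direction that they share.

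LINC00294 was the one member detected on both arrays that was at least 2-fold lower. Its deposited signal was 1151 with PBS and 374.2 with Me6TREN, where it lay close to the detection limit of 350.5. The log2 ratio was −2.15, or 4.43-fold lower, with a range of −2.80 to −1.26 over the scalings, the smallest without background correction. Of the genes on either side, TCP11L1 had a log2 ratio of 0.21, which changed sign among the scalings, and CSTF3, an mRNA 3′-end cleavage factor, of 0.64. The 4 probes of CSTF3 went apart, from −1.70 to 1.86, so no direction is given for that gene.

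LINC00926, an RNA known from B lymphocytes, had deposited signals of 677.0 with PBS and 1060 with Me6TREN. Its log2 ratio was 1.57, or 2.96-fold higher, and stayed past 2-fold in 9 of 10 alternatives, with a lowest value of 0.90. The transcription factor gene TCF12 beside it had a log2 ratio of 0.80.

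**Figure D1:**
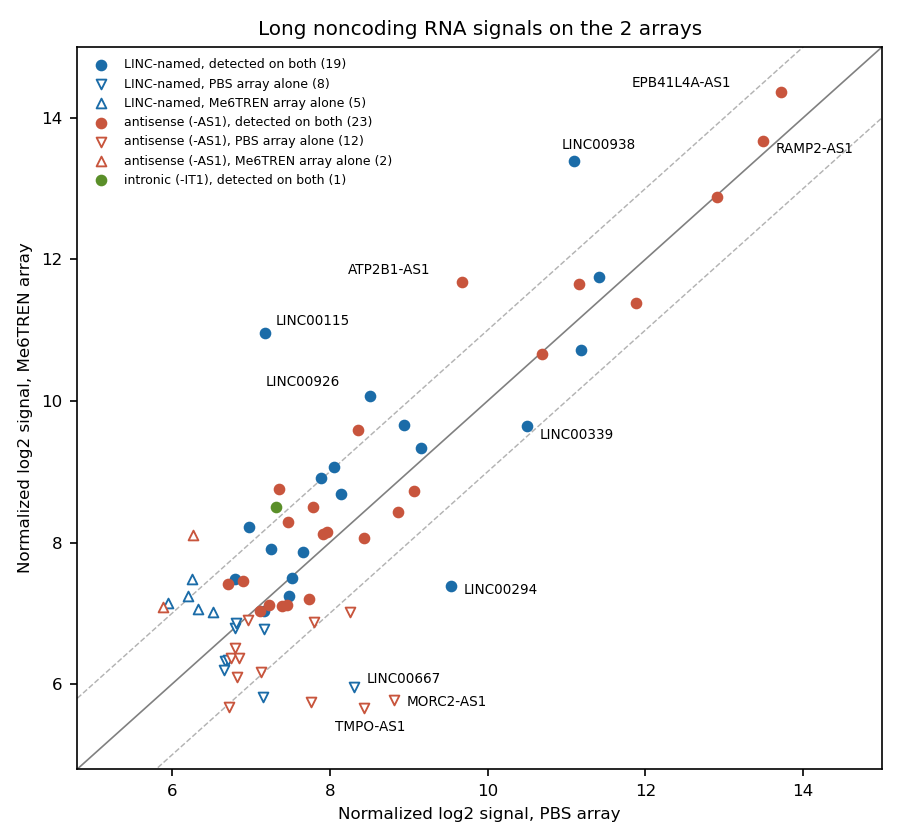
Normalized log2 signal of the 70 long noncoding RNAs on the PBS array (x axis) against the Me6TREN array (y axis), by gene class, with filled points for RNAs detected on both arrays and open triangles for those detected on 1. The solid line marks equal signal and the dashed lines a 2-fold difference; LINC00115 (3.77), LINC00938 (2.29) and ATP2B1-AS1 (1.999) lie farthest above it and LINC00294 (−2.15) lies farthest below among filled points.

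Among members detected on both arrays, 10 of 43 (23.3%) were at least 2-fold higher with Me6TREN, beside 6.85% of all 7834 named genes detected on both. In the other direction, 1 of 43 (2.33%) was at least 2-fold lower, beside 9.46% of all genes. This balance turned over with the scaling. Centring each array on the median of all probes gave 3 higher and 8 lower of the 43 (6.98% and 18.6%), beside 2.39% and 27.99% of all genes. The authors' deposited processed values gave 4 and 4 (9.30% each way), beside 2.98% and 24.7%. In the main setting the median log2 ratio of the 43 was 0.20 and that of all genes −0.04. The members were dimmer than most genes, with median deposited signals of 533.2 with PBS and 515.7 with Me6TREN against 1732 and 1107 over all genes detected on both. Brightness alone moves the share called, so the dim and bright genes are given apart. Below the median mean signal of all genes, 8 of 33 members were higher and 1 lower, beside 9.47% and 11.9% of all genes there. Above it, 2 of 10 members were higher and 0 lower, beside 4.24% and 7.05%. The lowest 10% of all genes by mean signal held 15 of the 43 members. There 1 of the 15 was at least 2-fold higher, beside 8.93% of all genes, and 2.68% of all genes were lower. In the next 10%, 3 of 9 members were higher, beside 11.0% of all genes, and 14.7% of all genes were lower. A gene near the detection limit has little room to be lower and stay detected on both arrays. The low count of lower members is therefore partly fixed by that requirement.

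The deposited signals, before any correction, include background. Their median over all 47322 probes was 272.1 with PBS and 283.1 with Me6TREN. Members were dimmer than most genes, and the next count was not matched for brightness, so it adds no separate support. The signal itself was higher on the Me6TREN array in 18 of 43 members (41.9%), and in 1660 of 7834 genes (21.2%). All 10 members counted as 2-fold higher were among those with the higher deposited signal. Without the background correction, 4 of 43 members (9.30%) were at least 2-fold higher, beside 3.51% of all genes.

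The other 6 members past 2-fold were dim, and their call depended on the processing. PAK6-AS1, antisense to a kinase gene, read 421.2 with PBS and 564.1 with Me6TREN, a log2 ratio of 1.39. LINC01311 read 369.5 and 467.5, a log2 ratio of 1.23. CD27-AS1 read 633.2 and 823.9, also a log2 ratio of 1.23. Each of these kept its direction over the scalings but fell short of 2-fold in 4 of 10 alternatives. BIN3-IT1, which lies within BIN3, read 415.3 and 515.7, a log2 ratio of 1.19. Its second probe, detected on the Me6TREN array alone, had a ratio of 1.46 as measured. LINC01300, at 1.02, and LINC00158, at 1.01, stood just past the threshold and passed it in 5 of 10 alternatives.

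By class, LINC-named RNAs had a median log2 ratio of 0.54 over 19 detected on both arrays, with 6 higher and 1 lower by 2-fold (31.6% and 5.26%). Antisense RNAs had a median of 0.18 over 23, with 3 higher and 0 lower (13.0% and 0%). The shares over all genes were 6.85% and 9.46%. The difference between the classes was not tested. The LINC median ran from −0.14 to 0.54 over the scalings and the antisense median from −0.43 to 0.25, so neither median has a direction that all scalings share.

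**Figure D2:**
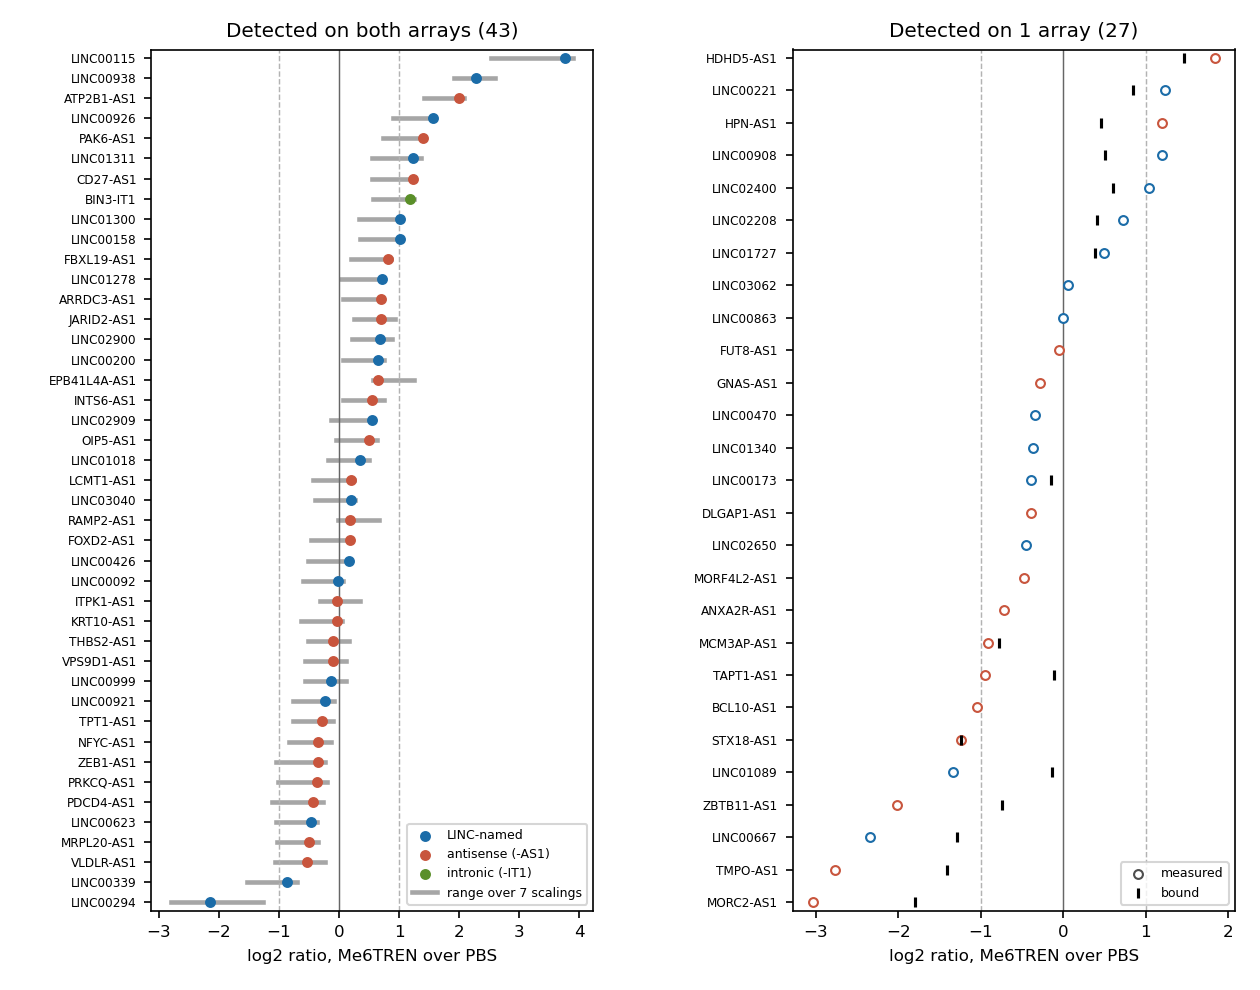
Log2 ratio of Me6TREN over PBS for the 43 members detected on both arrays (left, points, with grey bars for the range over 7 scalings) and the 27 detected on 1 array (right, open circles as measured, black ticks as bounds where one could be given). Dashed lines mark 2-fold; at left 10 points lie past it on the right and LINC00294 alone lies past it on the left, and many of the grey bars in the middle cross 0.

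Of the 70 members, 20 (28.6%) were detected on the PBS array alone, beside 13.3% of all 9410 genes. A further 7 (10.0%) were detected on the Me6TREN array alone, beside 3.46%. The detection that chose them also fixes the direction of any difference they show, and the members were dimmer than most genes, so these counts describe the members and nothing is read from them. For these a difference is given as a bound. The array without detection is set to its lowest detected level, or to the probe's own level where that is higher. By this bound 4 of the 20 were at least 2-fold lower, beside 15.5% of the 1250 genes detected on the PBS array alone. Of the 7, 1 was at least 2-fold higher, beside 29.8% of 326 genes. With bounds included, 11 of 70 were higher and 5 lower, beside 6.74% and 9.94% of 9410 genes, and the median was 0.

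MORC2-AS1 had deposited signals of 788.2 with PBS and 275.4 with Me6TREN, at least 3.48-fold lower. MORC2, the chromatin silencing gene it overlaps, had a log2 ratio of −0.75, and TUG1, the next gene along, of −0.70. TMPO-AS1 read 653.1 and 266.7, at least 2.67-fold lower. TMPO, which encodes a nuclear lamina protein and starts 636 bases away on the opposite strand, had a log2 ratio of 0.48, with a range of −0.14 to 0.54 over the scalings. A second TMPO-AS1 probe was likewise detected on the PBS array alone, at 368.1 against 275.0.

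LINC00667 read 616.4 with PBS and 288.4 with Me6TREN, at least 2.44-fold lower, beside ZBTB14 at a log2 ratio of −0.04. STX18-AS1 read 603.1 and 350.2, at least 2.36-fold lower. Its Me6TREN signal lay just under the detection limit of that array, and STX18 was detected on neither array. HDHD5-AS1 was the one bound past 2-fold in the other direction, at 301.7 with PBS and 452.5 with Me6TREN, at least 2.76-fold higher. HDHD5, whose start is 112 bases away, had a log2 ratio of −0.66, and ADA2, an adenosine deaminase gene on the far side, of −1.28. These 5 bounds stayed past 2-fold in 6 to 8 of 9 alternatives.

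The 10 members with the highest mean signal were mostly within 2-fold. EPB41L4A-AS1, the host gene of a small nucleolar RNA, was the brightest, at 14727 with PBS and 21233 with Me6TREN. Its log2 ratio was 0.65, or 1.57-fold higher, and ran from 0.57 to 1.25 over the scalings. RAMP2-AS1 read 12786 and 12351, with a log2 ratio of 0.18, and ITPK1-AS1 read 8827 and 6923, with −0.03. Both changed sign among the scalings, as did OIP5-AS1 (0.50), LINC01018 (0.35) and KRT10-AS1 (−0.03). OIP5-AS1, a cytoplasmic RNA known in vertebrates for binding a microRNA, read 2979 with PBS and 2833 with Me6TREN. MRPL20-AS1 (4667 and 2352) and LINC00623 (3031 and 1562) had log2 ratios of −0.50 and −0.46 and were lower under every scaling.

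Members with more than 1 detected probe allow a check within the arrays. LINC00339, an RNA gene of the CDC42 region, had 3 probes, which read 2008, 1385 and 1223 with PBS and 841.6, 634.1 and 620.2 with Me6TREN. Their log2 ratios were −0.87, −0.83 and −0.67, all lower and all short of 2-fold. For LINC01278 the 2 probes gave 0.72 and 0.61, although their deposited signals were nearly equal on the arrays, at 840.0 and 850.4 for the first. For LINC00173 the 2 probes disagreed in sign, at −0.39 and 0.38, close to the detection limit.

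Of the 38 antisense and intronic members, the gene named by the symbol without its ending was detected on at least 1 array for 27, and on both arrays for 24. In 15 pairs both genes were detected on both arrays. The log2 ratios had the same sign in 9 of the 15, and the antisense RNA had the higher ratio in 8. These counts depended on the scaling, from 6 to 11 pairs of the same sign and from 6 to 8 with the antisense RNA higher. The median was 0.18 for the antisense RNAs and 0.08 for their partners. Pearson's r over the 15 pairs was 0.12, given as a description, since all pairs share the same 2 arrays.

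Pairs went together or apart gene by gene. ARRDC3-AS1 and ARRDC3, an arrestin-family gene, had log2 ratios of 0.71 and 0.62, and EPB41L4A-AS1 and EPB41L4A of 0.65 and 0.50. ARRDC3 and EPB41L4A changed sign among the scalings, to as low as −0.06 and −0.18. PDCD4-AS1 and PDCD4, a translation inhibitor gene, had −0.43 and −0.57. KRT10, a keratin gene, was higher with a log2 ratio of 1.37 while KRT10-AS1 stood at −0.03. OIP5, a centromere gene, was lower with −1.08 while OIP5-AS1 stood at 0.50. CD27, a costimulatory receptor gene, stood at −0.23, with a range of −0.42 to 0.26, while CD27-AS1 was at 1.23. KRT10 and OIP5 were the only 2 partners in the 15 pairs past 2-fold, 1 higher and 1 lower. The shares over all genes detected on both arrays were 6.85% and 9.46%.

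Outside these 15 pairs, FUT8, a fucosyltransferase gene, had a log2 ratio of −1.35 beside FUT8-AS1, which was detected on the PBS array alone at 367.3 against 343.4. BCL10, a signalling adaptor of lymphocyte receptors, and BCL10-AS1 were both detected on the PBS array alone. JARID2, a cofactor of polycomb repression, was likewise detected on the PBS array alone, while JARID2-AS1 was detected on both with a log2 ratio of 0.70. Of the 53 members with a RefSeq promoter, 19 had a protein-coding start within 1000 bases on the opposite strand. In 9 of these pairs both genes were detected on both arrays, and 5 had the same sign.

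**Figure D3:**
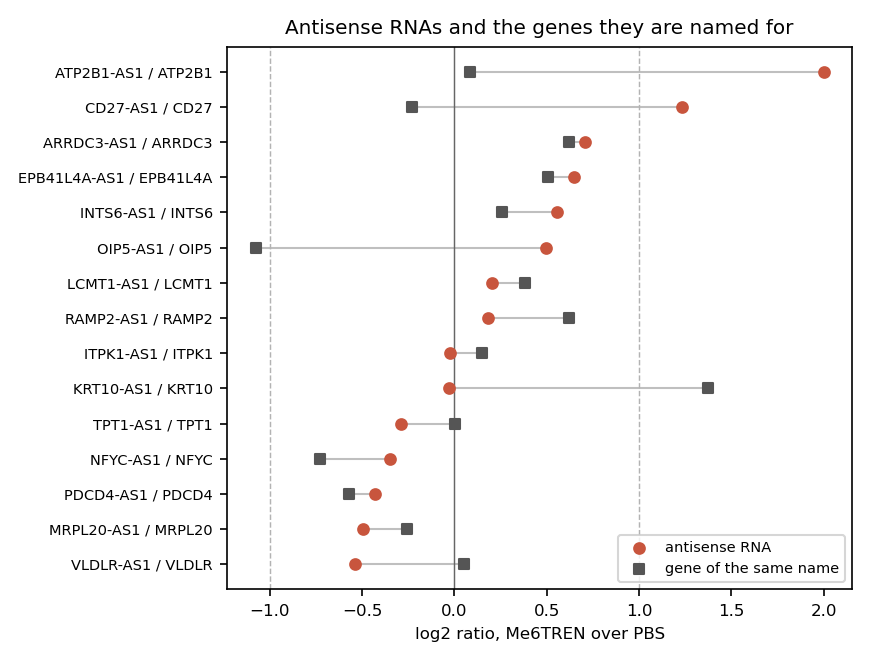
Log2 ratio of Me6TREN over PBS for the 15 antisense RNAs (circles) and the genes they are named for (squares) where both were detected on both arrays, with a line joining each pair and dashed lines at 2-fold. ATP2B1-AS1 (1.999) and CD27-AS1 (1.23) lie past 2-fold with partners at 0.08 and −0.23, and the circles and squares lie on the same side of 0 in 9 of 15 pairs in this scaling.

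The sign of the members' median depended on how the arrays were scaled. It was 0.20 in the main setting and 0.18 with each of 3 other background settings, but −0.18 when each array was centred on the median of all probes and −0.08 in the authors' deposited processed values. The median of all genes moved with it, to −0.54 and −0.45. Centring on the probes detected on both arrays gave 0.50 for members and 0.13 for all genes. The members' median stood above that of all genes by 0.06 to 0.37 in every setting, with 0.24 in the main one. The 0.06 came without a detection filter, and this range was not matched for brightness. In the main setting, the dimmest 784 genes detected on both arrays held 15 of the 43 members and had a median of 0.21. In the brighter groups of like size that median ran from −0.11 to −0.04. Below the median mean signal of all genes, members had 0.20 and all genes −0.01, and above it 0.27 and −0.06. How much of the gap comes from dim members was not tested. Of the 43 members, 29 kept 1 sign over the 7 scalings and 14 did not.

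**Figure D4:**
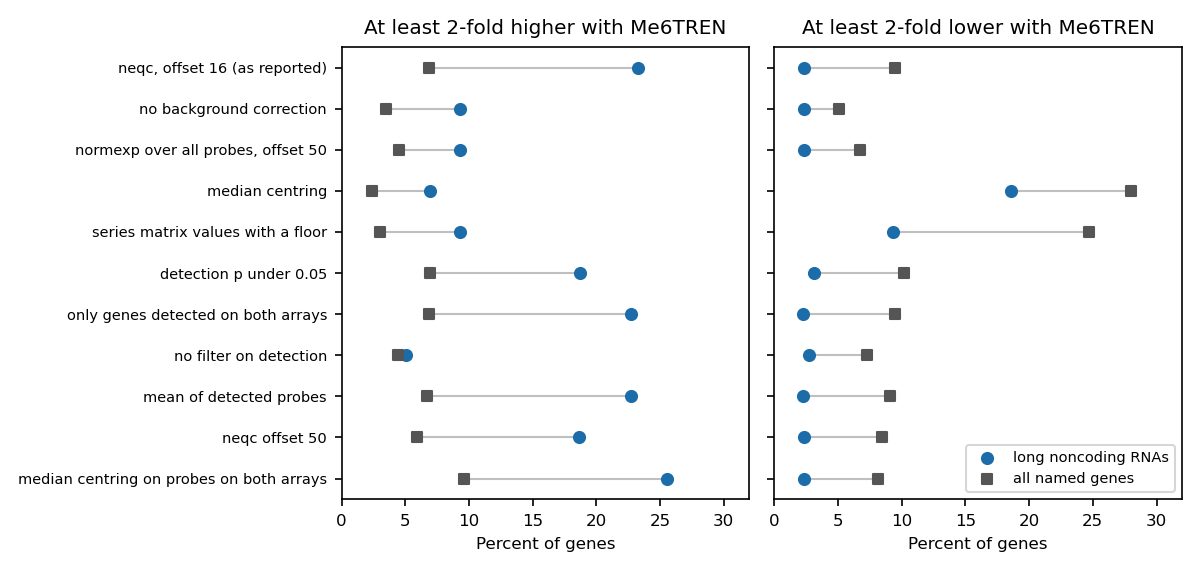
Percent of genes at least 2-fold higher (left) and lower (right) with Me6TREN under each processing setting, for long noncoding RNAs (circles) and all named genes (squares), over genes detected on both arrays except where no detection filter was used. In the main setting the shares higher are 23.3% and 6.85%, and without a detection filter they are 5.02% and 4.42%.

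The RNAs of genes for the nuclear body and exosome proteins that the background names were mostly within 2-fold. Of 23 paraspeckle protein genes, 22 had a probe and 18 were detected on both arrays. Of these 18, 0 were past 2-fold either way, beside 6.85% higher and 9.46% lower of all genes detected on both. Their median log2 ratio was −0.35. The lowest were NUDT21 (−0.91), a polyadenylation factor, HNRNPM (−0.81), TARDBP (−0.65) and SFPQ (−0.60), a paraspeckle core protein. All 4 were lower under every scaling, but the median of the list ran from −0.65 to 0.03.

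Of 26 nuclear speckle protein genes, 25 had a probe, and all 25 were detected on both arrays. By 2-fold, 1 was higher and 3 lower, and the median was −0.14. With all-gene shares of 6.85% and 9.46%, these counts are near the background. CLK1, a kinase that phosphorylates splicing factors, read 1716 with PBS and 3931 with Me6TREN, or 3.62-fold higher, and its other probe was higher too. SRSF3 (−1.39) and SRSF5 (−1.16), both splicing factors, were lower. SON, a speckle scaffold protein, had −1.37 in its brightest probe, and its probes disagreed in sign.

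Of 29 genes of the nuclear exosome and its cofactors, 27 had a probe and 24 were detected on both arrays. By 2-fold, 0 were higher and 1 lower, beside 6.85% and 9.46% of all genes detected on both, and the median was −0.16. EXOSC2, a subunit of the exosome cap, had a log2 ratio of −1.42. With bounds included 3 of 26 were lower, near the 9.94% of all genes counted that way. Among them was ZC3H4, a factor that ends the transcription of noncoding RNAs. ZC3H4 read 2529 with PBS and 349.3 with Me6TREN, at least 14.6-fold lower by its bound in the main setting. As measured, its log2 ratio ran from −4.45 to −2.54 over the scalings. ZC3H18, which links the cap-binding complex to decay, was at least 2.47-fold lower by its bound in the main setting. Its measured log2 ratio ran from −1.89 to −0.64. WDR82, a partner of ZC3H4, stood at −0.93. Whether these levels bear on the noncoding RNAs was not tested.

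Of 43 other long noncoding RNA genes with names of another form, 29 had a probe and 11 were detected on both arrays. Of these 11, 1 was higher and 0 lower by 2-fold, beside 6.85% and 9.46% of all genes detected on both. Their median log2 ratio was 0.59, and from 0.07 to 0.75 over the scalings. PVT1, the neighbour of MYC, read 541.7 with PBS and 695.3 with Me6TREN, a log2 ratio of 1.23. CRNDE stood at 0.86 and HCP5, an RNA gene of the HLA region, at 0.70. MIR155HG, the host gene of a lymphocyte microRNA, stood at −0.72 and TUG1 at −0.70.

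MALAT1 was no member. Its single probe read 191.5 on the PBS array and 226.5 on the Me6TREN array, with detection p-values of 0.901 and 0.771, below most negative controls. NEAT1 was not listed in the platform annotation used here. In all, 15.98% of the 438 genes of the rule were detected on at least 1 array, beside 46.9% of all 20046 named genes. At the threshold, LINC02208 (352.7) and LINC01727 (350.6) lay just inside on the Me6TREN array with a detection p-value of 0.00909. LINC02687 (331.5 with PBS) and a further probe of LINC01089 (347.5 with Me6TREN) lay just outside, at 0.0117.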

How the data were processed

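One Illumina HT12 array per group (PBS or Me6TREN for 24 hours, by the treatment label) measured biotinylated cRNA, made with an Ambion kit per the labels' protocols. A non-normalized table that the authors deposited gives, per the file headers, each probe's mean bead signal, a linear intensity with background included, and a detection p-value. These deposited p-values move in steps of 1 in 770, and each detection column followed its own array's signal. The 4 columns of bead and array numbers were not used. A deposited series matrix holds the authors' processed intensities. Each of its columns was the signal times 0.951 (PBS) or 1.05 (Me6TREN) plus −228.0 or −269.5, to within 0.0131, with medians of 30.9 and 28.8. Its scale is linear, it is not centred on genes and it rises with the signal. The software and build behind these values are not given in the sources at hand.

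Normalization used neqc of limma 3.58.1 (R 4.3.3), which infers the negative controls from detection p-values, with an offset of 16, quantile normalization and log2. Quantile normalization removes array-wide differences. Python 3.11.15 was used for the rest. Detection means a p-value under 0.01, with lowest detected signals of 333.4 and 350.5. A gene was taken from its brightest detected probe, and a call is a difference of at least 2-fold. The annotation gave 1 symbol for 30113 probes, several for 8 and none for 17201. All 70 members matched RefSeq with the same symbol. A probe's sequence and strand were not at hand, so which strand each probe measures was not checked.

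No test was possible with 1 array per group. The steps were tested on simulated data in which only bright probes were changed and no array-wide difference was added. That test therefore does not cover dim members or the choice of scaling. The members, gene lists and rules were chosen with earlier results of these data known. Named were MALAT1 and NEAT1, members past 2-fold or with bounds past it, the 10 brightest, those with several detected probes and those at the detection threshold. Partner genes, nearest genes of members past 2-fold and up to 4 genes per list with the largest ratios were named too. Other genes in the text, among them TUG1 in its list and the pairs and members within 2-fold, were chosen after their values were seen. The 9 other settings were no background correction, normexp with an offset of 50, median centring, the series matrix with a floor of 99.9, detection at 0.05, no filter on detection, detection required on both arrays, the mean of detected probes and a neqc offset of 50. Coordinates are those of the RefSeq promoter table, as the array files name no build.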

Additional observations from a re-analysis of the deposited data

How the results depend on the processing

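No paired analysis was possible because each group has 1 array. One of the 10 alternatives, median centring on the probes detected on both arrays, was chosen after seeing the data. The median log2 ratio of members on both arrays, 0.20 in the main setting, reversed to −0.18 with median centring over all probes and to −0.0771 with the series matrix values, and moved to 0.0391 without a detection filter and to 0.50 with the added centring. In both reversals the median of all genes moved down as well, to −0.54 and −0.45. The count of members at least 2-fold higher, 11 of 70, was 4 without background correction, 4 with normexp, 3 with median centring, 5 with the series matrix and 22 of 438 without a detection filter. The count of those lower, 5 of 70, was 1 without background correction, 2 with normexp, 14 with median centring, 10 with the series matrix, 1 where only genes detected on both arrays were kept, which leaves out the bounds, and 12 of 438 without a filter. Apart from the filters, which change the genes counted, the cause was not tested. The shares of all genes moved too. Over genes detected on both arrays, without bounds, 6.85% were higher and 9.46% lower in the main setting. They were 3.51% and 5.06% without background correction, and 4.53% and 6.75% with normexp. With median centring they were 2.39% and 27.99%, and with the series matrix 2.98% and 24.7%. Without a filter they were 4.42% and 7.30% of 20046 genes, beside 5.02% and 2.74% of the 438. For single members, 620 of 674 values moved by less than 1.5-fold, 54 moved further, and 0 called members changed sign. Part of this is built in. Settings that change only the detection rule or the averaging of probes leave most ratios of members detected on both arrays as they were. A bound was not allowed to cross 0. Calls were lost within the 1.5-fold tolerance too. Of the 16 called members, 5 stayed past 2-fold without background correction, 6 with normexp, 10 in the series matrix and 8 after median centring. Signals near the background limit what these arrays show of dim members, and 1 array per group leaves the spread between cultures unmeasured.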
